A study of Mus musculus with 6 samples.

Results

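The keratin family was taken as every gene whose symbol is Krt followed by digits alone, named through the RefSeq transcript of its probe. By that rule 49 keratin genes had a probe, of 20887 named genes on the array, and 59 of 55681 probes read them. Testing required a probe whose sample signal passed the scanner's background criterion on 3 or more of the 6 arrays, which held for 37 keratins and for 15675 genes in all. Of the 12 keratins that were not tested, Krt25 was above background on 0 arrays and the other 11 on 1 or 2.

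Keratins form the intermediate filaments of epithelial cells, as obligate pairs of a type I and a type II chain, and which pair a cell makes is a classical marker of its kind of epithelium. Basal and myoepithelial mammary cells carry the pair Krt5 and Krt14, while luminal mammary cells carry Krt8 and Krt18 with Krt7 and Krt19. Other members belong to the outer layers of epidermis and mucosa, to the root sheaths of hair, or to the hair shaft.

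The study compared 2 fractions of the mammary gland of virgin C57/B6 mice, 3 arrays each. All mice carried the lgr5-egfp-ires-creert2 allele, which places EGFP under the control of the Lgr5 locus. Lgr5-positive samples were the GFP+ cells and Lgr5-negative samples the GFP- cells of a sort gate called P4, which is Lin-, CD24+ and CD29hi and enriched in basal cells. The markers behind Lin, the age of the mice and the number of animals in a sample are not given in the sources used here. Sample RNA was labelled with Cy5 and hybridised on each array against a universal mouse reference, a mix of 11 cell lines labelled with Cy3. No dyes were swapped, so a ratio to the reference holds the dye effect of its probe, which drops out of the difference between groups where it is constant. The labels do not say whether replicates came from separate animals, so p-values measure the spread between these samples, and the number of arrays limits their precision. In sorted bulk RNA, fewer cells of a type and less RNA per cell cannot be told apart.

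Median Cy5 signal was lower on each Lgr5-positive array (137 to 169) than on any Lgr5-negative array (200 to 278), over a background of 64 to 76. Lgr5 itself was 2.77-fold higher in Lgr5-positive samples and higher in all 3 same-numbered pairs (limma adjusted p = 0.244 with the group as the only term, 0.00215 with the replicate number as a block). Arrays with the same replicate number in both groups deviated together from their group means, so the blocked result stands beside the other wherever it changed a call.

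The keratin genes of the mouse lie in 2 clusters, with 25 symbols of the RefSeq table on chromosome 11 and 25 on chromosome 15. Promoter windows from RefSeq were matched for 35 of the 49 keratins. The 3 printed here belong to members of the chromosome 15 cluster that stood at different ends of the results. Krt5 was among the transcripts most above the reference, Krt7 was the keratin that fell in both fits, and Krt71, next to Krt5, rose with the block. Each window is the 250 bases before the annotated start in assembly GRCm38.p6, at chr15:101712906-101713155 on the minus strand for Krt5, chr15:101412153-101412402 on the plus strand for Krt7 and chr15:101743098-101743347 on the minus strand for Krt71. Capitals mark matches to the 4 motifs searched.
Krt5: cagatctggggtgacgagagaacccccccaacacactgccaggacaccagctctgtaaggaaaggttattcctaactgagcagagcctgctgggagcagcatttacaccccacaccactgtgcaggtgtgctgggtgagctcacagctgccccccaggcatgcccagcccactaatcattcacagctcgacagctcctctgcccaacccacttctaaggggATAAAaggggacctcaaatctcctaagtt
Krt7: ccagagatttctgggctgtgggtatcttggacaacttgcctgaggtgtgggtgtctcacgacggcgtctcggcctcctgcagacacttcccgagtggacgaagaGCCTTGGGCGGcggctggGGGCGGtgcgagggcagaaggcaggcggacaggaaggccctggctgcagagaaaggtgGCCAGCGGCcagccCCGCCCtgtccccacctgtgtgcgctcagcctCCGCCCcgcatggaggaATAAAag
Krt71: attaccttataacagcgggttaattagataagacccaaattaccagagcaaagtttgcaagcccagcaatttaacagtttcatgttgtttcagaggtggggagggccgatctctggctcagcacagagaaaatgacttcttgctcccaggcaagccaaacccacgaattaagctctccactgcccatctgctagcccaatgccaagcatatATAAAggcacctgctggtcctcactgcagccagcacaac

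The TATA-like letters ATAAA, searched on the forward strand in the last 50 bases, began 29 bases before the start of Krt5, 7 before that of Krt7 and 39 before that of Krt71. Among keratins they were in 22 of 36 windows (61.1%; Krt13 has more than 1 window), against 6.58% of 32817 windows of all genes. Krt7 stood apart from the other printed windows in its GC-rich matches. It held 4 GC boxes (GGGCGG) and 2 AP-2 motifs (GCCNNNGGC), searched on both strands, of which one of each overlap. Neither motif was in the windows of Krt5 and Krt71. Over all keratin windows the GC box was in 5.56% (32.7% of all windows) and the AP-2 motif in 13.9% (13.7%). The AP-1 motif TGANTCA was in 5.56% (6.75%) and in no printed window. These matches describe letters and were not tested as binding sites.

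Keratins lay above the reference in both fractions more often than all genes did. On all 6 arrays 20 of 37 keratins (54.1%) lay above the reference, against 26.9% of all genes tested, and 2 (5.41%) lay below it, against 33.1%. Some of the 20 were only slightly above it, such as Krt73 (1.16-fold) and Krt35 (1.18-fold). Under median centring 14 keratins lay above it. Krt17, a keratin of skin appendages and of activated epidermis, was the highest, at a log2 ratio of 5.49 ± 0.40 over both groups (SD, n = 6), or 44.9-fold the reference. It was followed by Krt23 at 4.74 ± 0.48, Krt15 at 4.49 ± 0.43, Krt14 at 4.35 ± 0.39 and Krt5 at 4.17 ± 0.50. Neighbours in this order differed by less than these SDs except Krt17 and Krt23. The reference signal of Krt23 was above background on 5 of 6 arrays, so its ratio is no exact level. At the other end were Krt76 (-0.25 ± 0.15), a keratin of the palate, Krt86 (-0.32 ± 0.17), a hair keratin, and Krt20 (-2.07 ± 0.36), a keratin of gut and urothelium. Krt20 was the lowest, 4.19-fold below the reference. These are ratios to a mix of cell lines, so they do not rank the amounts of the transcripts.

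**Figure D1:**
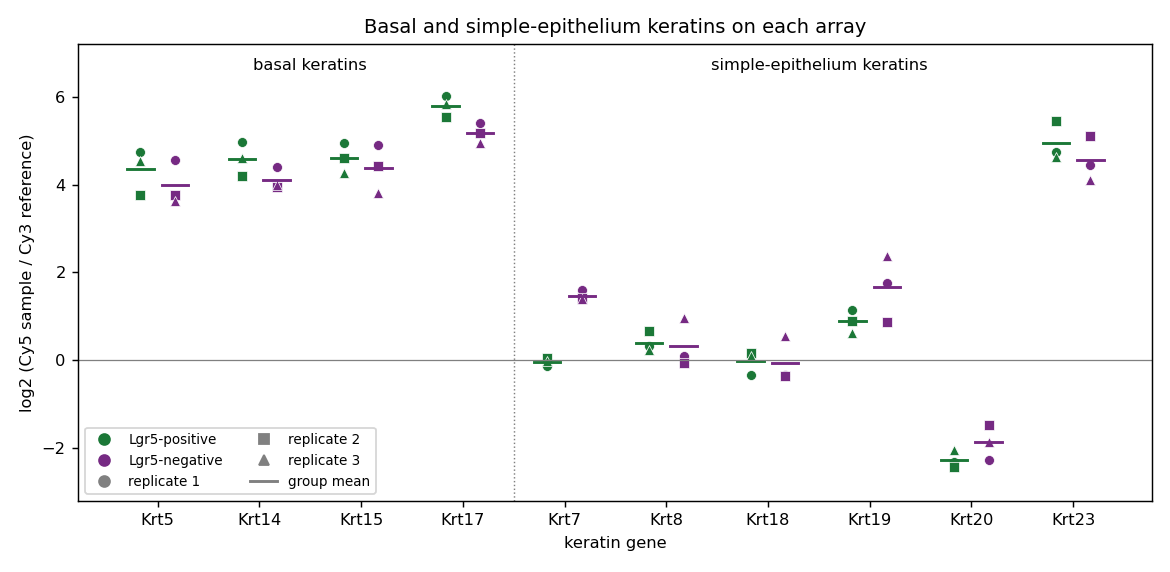
Log2 ratio of sample to reference (vertical axis) of the 4 basal and 6 simple-epithelium keratins (horizontal axis) on each of the 6 arrays, with group means as lines and replicate numbers as shapes. The basal keratins lay above 3.6 on every array, and Krt7 is the simple keratin whose groups stand apart.

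Between the fractions, most keratins did not pass the test. With the group as the only term, 1 of 37 keratins passed an adjusted p of 0.05 (limma, Benjamini-Hochberg over 15675 genes), which is 2.7% against 0.612% of all genes. That keratin was Krt7, which fell, and 0 rose, where 0.0255% of all genes rose and 0.587% fell. At an unadjusted p under 0.05 there were 6 keratins with the group alone, where all genes had 8.2%, and 12 with the block, where all genes had 21.3%. With the replicate block 6 of 37 passed (16.2%), against 7.72% of all genes. Krt17 and Krt71 rose in Lgr5-positive samples (5.41% of the keratins, against 2.11% of genes), and Krt7, Krt4, Krt1 and Krt2 fell (10.8%, against 5.61%). Of the 28 keratins above background on all 6 arrays, 4 passed with the block (Krt17, Krt71, Krt7 and Krt2), against 1103 of 12898 genes. Under median centring in place of loess, which moved the median of all genes to -0.29, 12 passed with the block, 1 higher and 11 lower. The values of the 37 keratins were 19 positive and 18 negative, with a median log2 difference of 0.03, against 0.01 for all genes. Under median centring they were 7 and 30, with a median of -0.28, and in the Cy5 channel alone 13 and 24. The groups did not overlap for 5 keratins (13.5%, against 12.2% of genes), namely Krt2, Krt4, Krt7, Krt17 and Krt82. All 3 pairs had the same sign for 18 (48.6%, against 44.3%).

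**Figure D2:**
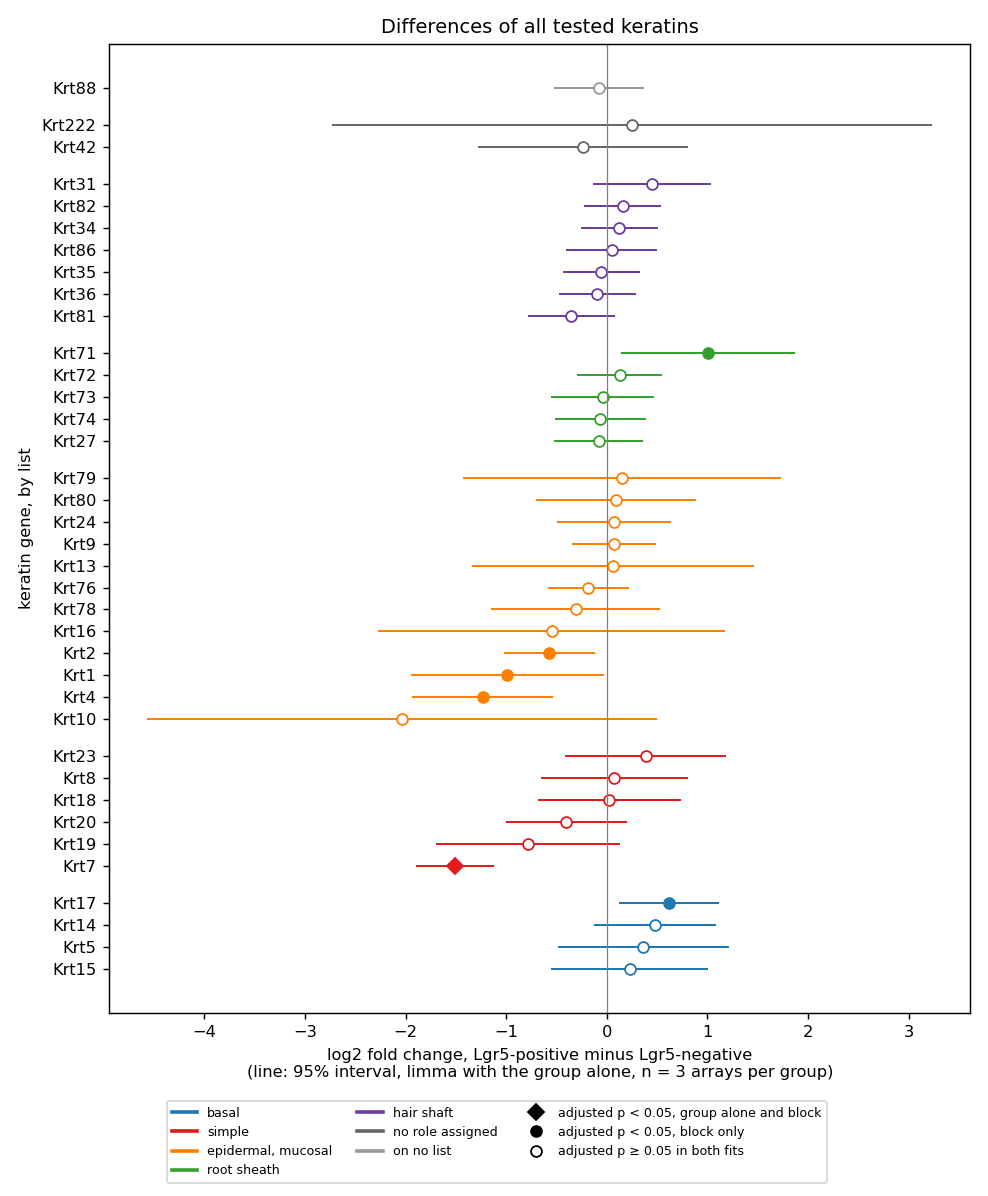
Log2 difference between Lgr5-positive and Lgr5-negative arrays (horizontal axis) of the 37 tested keratins (vertical axis, grouped by list), with 95% intervals of the limma fit with the group alone. The diamond is Krt7, filled circles are the 5 keratins that passed with the replicate block alone, and the widest intervals belong to Krt222 and Krt10.

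The basal keratins were well above the reference in both fractions. All 4 had values above 0 in the comparison (median 0.42, range 0.23 to 0.62), of which Krt17 passed with the block. Under median centring the median of the list was -0.03, which is 0.26 above that of all genes. It was 0.26 in the Cy5 channel alone, with Krt15 below 0, and 0.23, 0.67 and 0.64 without Lgr5-positive replicate 1, Lgr5-positive replicate 2 and Lgr5-negative replicate 1. Krt17 had log2 ratios of 6.01, 5.54 and 5.84 on Lgr5-positive arrays 1 to 3 and of 5.40, 5.18 and 4.96 on Lgr5-negative arrays 1 to 3. Every positive array lay above every negative one. The difference was 0.62 (1.54-fold; SE 0.20, limma adjusted p = 0.39 with the group alone; SE 0.14, adjusted p = 0.0455 with the block). That blocked call was lost without any one of the pairs, at an adjusted p of 0.0835, 0.127 and 0.147 without pairs 1, 2 and 3.

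Krt14, the type I chain of the basal pair, stood at 4.96, 4.2 and 4.61 in Lgr5-positive and at 4.41, 3.93 and 3.99 in Lgr5-negative samples. Each positive array was above its paired negative one, by 0.55, 0.26 and 0.62, but the groups overlapped. Its difference of 0.48 (95% interval -0.12 to 1.08, limma adjusted p = 0.831) did not pass, nor did it with the block (adjusted p = 0.078). Krt5, the type II partner of Krt14, stood at 4.75, 3.76 and 4.54 in Lgr5-positive and at 4.57, 3.76 and 3.63 in Lgr5-negative samples. The pair of replicate 2 was level, and the groups overlapped. The difference of Krt5 was 0.36 (95% interval -0.48 to 1.21, adjusted p = 1), and a dimmer second probe gave -0.21. Krt15, a basal keratin also known from the hair follicle bulge, stood at 4.95, 4.60 and 4.26 in Lgr5-positive and at 4.91, 4.42 and 3.80 in Lgr5-negative samples. Its groups overlapped nearly throughout, with a difference of 0.23 (95% interval -0.55 to 1.00, adjusted p = 1). Under median centring Krt5, Krt14 and Krt15 had values of -0.06, -0.01 and -0.29, each at or above the shift of all genes. Krt14, Krt16, Krt17 and Krt42 are close copies of one another in part of their sequence, and the probe sequences were not used here, so signal shared between them was not tested.

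Markers of basal cells other than keratins had mostly positive values, 11 of 12. Of these 12, 0 passed with the group alone (limma), and 5 had an unadjusted p under 0.05, where all genes had 8.2%. With the block 3 rose (Cdh3, Cnn1 and Oxtr), where 2.11% of all genes rose. The median difference was 0.50. Their median log2 ratio was 4.14, 4.22 and 4.18 on Lgr5-positive and 3.83, 4.02 and 3.36 on Lgr5-negative arrays, and their summed ratio spanned 483 to 513 and 222 to 369. Whether the share of basal cells had a part in the values of the basal keratins was not tested.

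Among the simple-epithelium keratins Krt7, which is made in ducts and other simple epithelia, was lower in Lgr5-positive samples, and the other 5 did not pass. The list had 6 members, with 3 values above 0 and 3 below and a median of -0.19. That median was -0.52 under median centring (1 above and 5 below), -0.37 in the scanner's ratios, and -0.36 and -0.12 without Lgr5-negative replicate 1 and 3. Krt7 had log2 ratios of -0.14, 0.04 and -0.01 on Lgr5-positive arrays 1 to 3 and of 1.6, 1.42 and 1.39 on Lgr5-negative arrays 1 to 3. The positive arrays lay at the level of the reference and the negative ones clearly above it, with a gap between the groups that was several times their spread. Its sample signal passed the background criterion on all 6 arrays but was dim on the positive ones. There the Cy5 signal was 162, 185 and 172.5, where the array medians were 137, 161 and 169. Krt7 fell by 1.51 on the log2 scale (2.84-fold, SE 0.16, 95% interval -1.89 to -1.13, limma adjusted p = 0.0236; with the block SE 0.13, adjusted p = 0.00214). Within pairs the differences were -1.74, -1.38 and -1.41. The difference of Krt7 was -2.03 in the scanner's ratios and in the deposited table, outside that interval, so 1.51 is no exact size. With the group alone, the call was kept without Lgr5-negative replicate 1. It was lost without Lgr5-positive replicate 1, 2 or 3 (adjusted p = 0.149, 0.0523 and 0.151) and without Lgr5-negative replicate 2 or 3 (0.136 and 0.0732), while the value stayed between -1.55 and -1.44. With the block it was kept without each of the 3 pairs.

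Krt8 and Krt18, the pair that defines simple epithelium, were near the level of the reference in both fractions. A ratio near the reference is not a low amount, and their mean Cy5 signal was 2905.5 and 35049. Krt8 stood at 0.32, 0.67 and 0.22 in Lgr5-positive and at 0.10, -0.07 and 0.96 in Lgr5-negative samples. Krt18 stood at -0.32, 0.15 and 0.09 in Lgr5-positive and at -0.34, -0.36 and 0.55 in Lgr5-negative samples. In both genes Lgr5-negative replicate 3 was the highest array and the pairs went both ways. Their differences were 0.07 (95% interval -0.65 to 0.80) for Krt8 and 0.03 (-0.68 to 0.73) for Krt18, with an adjusted p of 1 for each. Under median centring these were -0.37 and -0.37, which is -0.08 for each relative to all genes, and Krt18 was also at -0.01 in the Cy5 channel alone.

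Krt19, a small keratin of luminal and other simple epithelia, stood at 1.15, 0.90 and 0.62 in Lgr5-positive and at 1.77, 0.88 and 2.36 in Lgr5-negative samples. Replicates 1 and 3 were higher in the negative fraction and replicate 2 was level. The difference of -0.78 (95% interval -1.68 to 0.12) had an adjusted p of 0.748 with the group alone and 0.2 with the block. Krt23, the second highest keratin against the reference, stood at 4.75, 5.44 and 4.63 in Lgr5-positive and at 4.44, 5.11 and 4.10 in Lgr5-negative samples. Each positive array was above its partner, and the groups overlapped (0.39, adjusted p = 1, or 0.117 with the block). Krt20, below the reference throughout, stood at -2.33, -2.44 and -2.03 in Lgr5-positive and at -2.28, -1.46 and -1.85 in Lgr5-negative samples. Its groups overlapped as well (-0.40, adjusted p = 0.952).

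Luminal markers other than keratins had 13 values below 0 and 3 above. Of these 16, 0 passed with the group alone (limma), and 7 had an unadjusted p under 0.05, where all genes had 8.2%. With the block 7 fell (Ly6a, Foxa1, Esr1, Cd14, Prom1, Kit and Cited1), where 5.61% of all genes fell. The median difference was -0.44. Their median log2 ratio was 0.67, 1.22 and 0.86 on Lgr5-positive and 1.24, 1.44 and 1.25 on Lgr5-negative arrays, with summed ratios of 55.8 to 84.6 and 76.5 to 95.3. Endothelial markers differed by more, with a median difference of -2.14 over 11 genes. Of these 11, 3 fell with the group alone, where 0.587% of all genes fell, and 8 with the block. Their summed ratios were 35.2 to 108 on Lgr5-positive and 201 to 304 on Lgr5-negative arrays. Of 6 pericyte markers 3 fell with the block (median -0.72, summed ratios 6.33 to 8.74 and 10.5 to 14.6). Of 8 fibroblast markers 4 fell and 1 rose with the block, where 2.11% of all genes rose (median -0.44, summed ratios 7.95 to 12.5 and 10.9 to 18.5). Leukocyte markers had 5 values above 0 and 4 below, and 1 of these 9 fell with the block (median 0.0014, summed ratios 7.68 to 14.1 and 8.47 to 16.6). Adipocyte markers had 3 values above 0 and 2 below, and 0 of these 5 passed with the block (median 0.0161, summed ratios 109 to 233 and 220 to 291). The part of luminal, endothelial, pericyte, fibroblast, leukocyte or adipocyte cells in the difference of Krt7 was not tested.

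**Figure D3:**
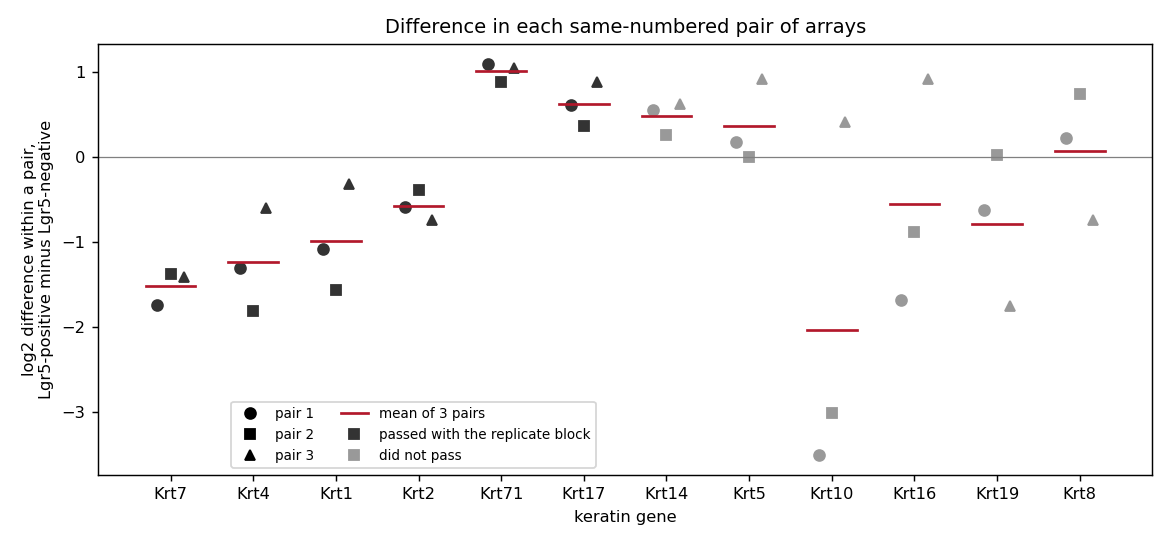
Log2 difference, Lgr5-positive minus Lgr5-negative (vertical axis), within each of the 3 same-numbered pairs for 12 keratins (horizontal axis), with the mean of the pairs as a line. The 6 keratins that passed with the replicate block (dark) had one sign in all pairs, whereas Krt10, Krt16, Krt19 and Krt8 (grey) changed sign in 1 pair.

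With the block, 3 keratins of outer epidermis and mucosa were lower in Lgr5-positive samples (Krt4, Krt1 and Krt2), where 5.61% of all genes fell. With the group alone 0 passed, and 3 had an unadjusted p under 0.05 (limma), where all genes had 8.2%. Krt4 and Krt1 were not above background on all 6 arrays. Under a filter that asked for this they were not tested, and Krt2 passed with the block. Of 15 named, 14 had a probe and 12 were tested, with 5 values above 0, 7 below and a median of -0.24. Under median centring 0 were above and 12 below, with a median of -0.35, or -0.05 relative to all genes. The median was -0.43 for the mean of a gene's probes, 0.06 over the 9 members above background on all 6 arrays, and -0.05 and -0.38 without Lgr5-negative replicate 1 and 3. Krt4, the type II chain of mucosal epithelium, stood at 0.20, 0.14 and 0.23 in Lgr5-positive and at 1.5, 1.95 and 0.82 in Lgr5-negative samples. The groups did not overlap, but only 1 positive and 2 negative arrays were well above background, and the reference signal was so on only 2 of 6. The fitted difference of -1.23 (SE 0.29, limma adjusted p = 0.177; with the block SE 0.22, adjusted p = 0.0222) thus rests on values near background and is no exact size. The blocked call was lost without pair 2 (adjusted p = 0.129).

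Krt1, the type II chain of the suprabasal epidermis, stood at 0.17, -0.04 and -0.31 in Lgr5-positive and at 1.25, 1.52 and 0.01 in Lgr5-negative samples. Lgr5-negative replicates 1 and 2 were high, replicate 3 lay among the positive arrays, and each pair had the same sign. The difference was -0.99 (limma SE 0.40, adjusted p = 0.572, or with the block SE 0.23, adjusted p = 0.049). The blocked call was lost without pair 1 (0.0797) or pair 2 (0.246). Krt1 was well above background on 2 positive and 3 negative arrays. Its difference was -1.56 in the scanner's ratios, so -0.99 is no exact size. Krt2, of the upper epidermis, stood at -0.07, 0.31 and -0.15 in Lgr5-positive and at 0.52, 0.70 and 0.59 in Lgr5-negative samples. The groups were apart but the gap was small. Its difference of -0.57 (SE 0.19, adjusted p = 0.382; with the block SE 0.13, adjusted p = 0.0431) lost the blocked call without any one of the pairs (0.0919, 0.147 and 0.141), and a second, dimmer Krt2 probe gave -0.12.

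Krt10, the type I partner of Krt1, had the largest difference of all tested keratins and did not pass. It stood at 0.47, 0.54 and 0.08 in Lgr5-positive and at 3.98, 3.54 and -0.33 in Lgr5-negative samples. Lgr5-negative replicates 1 and 2 were more than 3 log2 units above every positive array, and replicate 3 was the lowest of all 6. The difference was -2.03 (SE 1.06, 95% interval -4.56 to 0.49, adjusted p = 0.826, or 0.141 with the block). Without Lgr5-negative replicate 3 the value was -3.40 (adjusted p = 0.0416), and without pair 3 in the blocked fit it was -3.25 (adjusted p = 0.000115). A dimmer Krt10 probe had smaller values, with 0.27, 0.71 and 0.02 against 1.68, 1.77 and 0.73. There Lgr5-negative replicate 3 lay above every positive array, and the difference of -1.06 passed with the block over 34520 probes (adjusted p = 0.0093) but not with the group alone (0.569).

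Krt16 and Krt13 are given in full as well, chosen after their values were seen. Krt16, a keratin of wounded epidermis, stood at 3.21, 3.05 and 2.72 in Lgr5-positive and at 4.89, 3.93 and 1.80 in Lgr5-negative samples. Lgr5-negative replicates 1 and 2 were the highest arrays and replicate 3 the lowest, so that the difference was -0.55 (SE 0.72, adjusted p = 1). Krt13, the mucosal partner of Krt4, was read by 2 probes that disagreed. The brighter gave 4.18, 3.95 and 2.76 against 4.50, 3.75 and 2.46, a difference of 0.06. The dimmer gave 0.69, 0.81 and -0.17 against 2.97, 2.59 and 0.19, a difference of -1.47 that passed with the block over probes (adjusted p = 0.0456). In both Krt13 probes replicate 3 was the lowest array of its group.

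Krt6a and Krt6b, the wound-edge type II keratins, fall outside the naming rule by their letter and are given beside it. Krt6b stood at 2.07, 1.70 and -0.07 in Lgr5-positive and at 6.57, 5.30 and 0.48 in Lgr5-negative samples. Krt6a stood at 0.73, 0.71 and 0.15 against 3.25, 3.05 and 1.02. Replicate 3 was the lowest of each group in both genes, and the difference was largest in pairs 1 and 2. The differences were -2.88 for Krt6b (limma adjusted p = 0.829, with the block 0.0476) and -1.91 for Krt6a (0.331, with the block 0.0152). A second, dimmer Krt6b probe stood at 1.24, 1.20 and 0.68 against 3.99, 3.51 and 1.08, a smaller difference of -1.82. Krt6a and Krt6b are near-identical copies, so their probes may share signal, which was not tested. Krt33b had a difference of 0.07, and Krt33a was not above background on any array.

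Krt12, the corneal keratin, was just outside the detection filter, and its more variable probe stood at 0.30, -0.03 and 0.26 in Lgr5-positive and at 2.57, 2.95 and -0.11 in Lgr5-negative samples. The sample signal was well above background on Lgr5-negative replicates 1 and 2 alone and the reference signal on 0 of 6 arrays, so these ratios are no exact levels. In the normalized Cy5 channel, which is open to dye bias, the mean of the Lgr5-negative arrays was 2.94-fold that of the positive arrays. Positive values under the lowest signal that passed the background criterion on their array were set to that signal. The Lgr5-negative mean holds replicate 3, itself not above background, so 2.94-fold is no lower bound. A second Krt12 probe gave a difference of -0.02, with 1 array above background in each group.

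**Figure D4:**
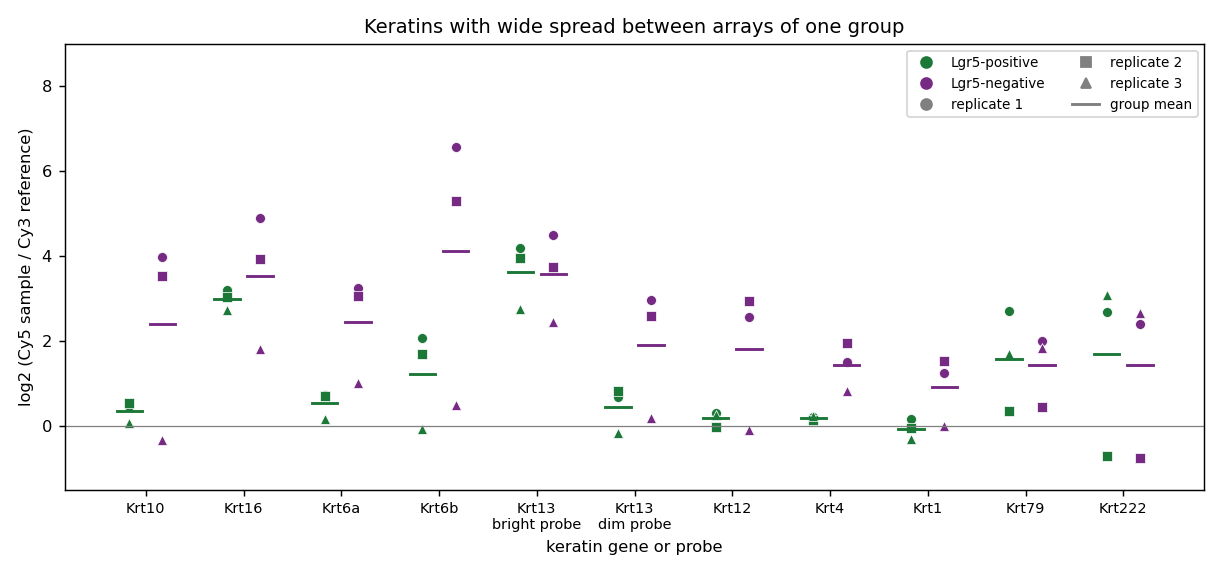
Log2 ratio of sample to reference (vertical axis) on each array for keratins and probes with a wide spread within a group (horizontal axis), with group means as lines and replicates as shapes. For Krt10, Krt16, Krt6a, Krt6b, Krt13 and Krt12, Lgr5-negative replicates 1 and 2 lay well above Lgr5-negative replicate 3, whereas Krt222 was low in replicate 2 of both groups; the reference was above background on 0 arrays for Krt12 and on 2 for Krt4.

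Keratins varied more between the Lgr5-negative arrays than between the Lgr5-positive ones. The median range within a group was 0.77 over Lgr5-negative and 0.46 over Lgr5-positive arrays, against 0.58 and 0.52 for all genes. Markers of epidermis and hair other than keratins were given by 10 tested genes of 16 with a probe. Their median log2 ratio was 0.35, 0.14 and 0.27 on Lgr5-positive and 1.01, 0.60 and 0.12 on Lgr5-negative arrays, with summed ratios of 13.8 to 18.1 and 20.8 to 32.9. Lgr5-negative replicates 1 and 2 were both above replicate 3 in 7 of the 10 genes, and not in Crym, Tchh and Lgr6. The share of all genes in that order was not counted. Of the 7, Foxn1 stood at 0.12, 0.10 and 0.08 on the Lgr5-negative arrays, Lce1a1 at -0.03, 0.32 and -0.08. Lor stood at 0.86, 0.89 and 0.66, Hoxc13 at -0.88, -1.07 and -1.37, and Sbsn at 0.53, -0.17 and -0.81. Sprr1a, a precursor of the cornified envelope, stood at 2.72, 1.63 and -0.11 on the Lgr5-negative arrays, and Krtdap, a keratinocyte differentiation protein, at 3.36, 2.56 and 0.16, both chosen after their values were seen. Crym, which binds thyroid hormone, stood at 2.50, 3.15 and 3.03 on them, Tchh, of the inner root sheath, at 1.21, 2.87 and 2.09, and Lgr6, a relative of Lgr5, at 1.15, 0.23 and 0.83. Of the 10 genes, Crym fell with the group alone, where 0.587% of all genes fell. Crym and Sprr1a fell with the block, where 5.61% of all genes fell. Ivl, Dsc1 and Fgf5 were not above background on any array. The part of such cells in the differences of the epidermal keratins was not tested.

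Among keratins of the root sheaths of hair, Krt71 rose in Lgr5-positive samples with the block, where 2.11% of all genes rose. The other 4 tested of 9 with a probe did not. Krt71, a type II keratin of the inner root sheath, stood at 2.85, 3.03 and 2.10 in Lgr5-positive and at 1.75, 2.15 and 1.06 in Lgr5-negative samples. The groups overlapped, but each positive array was above its partner by a similar amount, 1.1, 0.88 and 1.04. The difference was 1.01 (2.01-fold, SE 0.36, limma adjusted p = 0.447 with the group alone; SE 0.12, adjusted p = 0.00506 with the block). That blocked call was kept without each of the 3 pairs, at an adjusted p of 0.00829 to 0.0467, and in all 9 other settings tried. Krt72, just inside the detection filter, stood at 0.27, 0.06 and 0.07 against 0.15, 0.05 and -0.18. Krt74, also just inside it, stood at -0.24, 0.13 and 0.09 against -0.12, 0.07 and 0.22. Both lay near the reference on all arrays, with differences of 0.13 and -0.06. Krt75, of the companion layer, was just outside the filter, at 0.61, 0.40 and 0.56 against 0.29, 0.10 and 0.24, and had no test. Krt27 and Krt73 gave -0.08 and -0.04.

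The hard keratins of the hair shaft gave 0 calls in either limma fit. With the group alone and the block, 0 and 2 members had an unadjusted p under 0.05, where all genes had 8.2% and 21.3%. Of 14 named, 12 had a probe and 7 were tested, with differences from -0.35 (Krt81) to 0.45 (Krt31) and a median of 0.05. Krt86 stood at -0.24, -0.51 and -0.13 in Lgr5-positive and at -0.22, -0.54 and -0.26 in Lgr5-negative samples. It lay below the reference on all 6 arrays, with a difference of 0.05, and had the value -0.42 under median centring, lower than the shift of all genes and with an adjusted p of 0.027 in the block. Krt82 had groups that did not overlap at a small size (0.16, limma adjusted p = 1, unadjusted p = 0.348). It was the only tested keratin above background on more positive than negative arrays, whereas 8 were so on fewer. The share of all genes in either state was not counted, and median Cy5 signal was lower on each Lgr5-positive array. The remaining hair keratins were Krt34 (0.13), Krt35 (-0.05) and Krt36 (-0.09).

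The other keratins did not pass either. Krt76, one of the 3 lowest against the reference, stood at -0.37, -0.32 and -0.33 in Lgr5-positive and at -0.17, 0.02 and -0.32 in Lgr5-negative samples. Its groups overlapped, with a difference of -0.18. Krt9, Krt24, Krt80, Krt79 and Krt78 had differences of 0.07, 0.07, 0.09, 0.15 and -0.31. Krt42, which has no role assigned here, gave -0.24 and Krt88, on none of the lists, -0.07. Krt222, an atypical keratin, varied with the replicate number and not with the fraction. It stood at 2.69, -0.70 and 3.08 in Lgr5-positive and at 2.39, -0.74 and 2.67 in Lgr5-negative samples, so that replicate 2 was more than 3 log2 units below the others in both groups. A second Krt222 probe was above background on 0 arrays.

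Along the clusters, keratins that moved did not lie in one block. Krt7, with the negative value -1.51, is flanked by Krt80 (0.09) and by Krt87, which was not tested. Krt71 (1.01) lies between Krt5 (0.36) and Krt74 (-0.06). Krt2 and Krt1, which both fell with the block, are neighbours, and Krt4 lies near them. On chromosome 11 Krt17 (0.62) lies between Krt16 (-0.55) and Krt42 (-0.24).

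**Figure D5:**
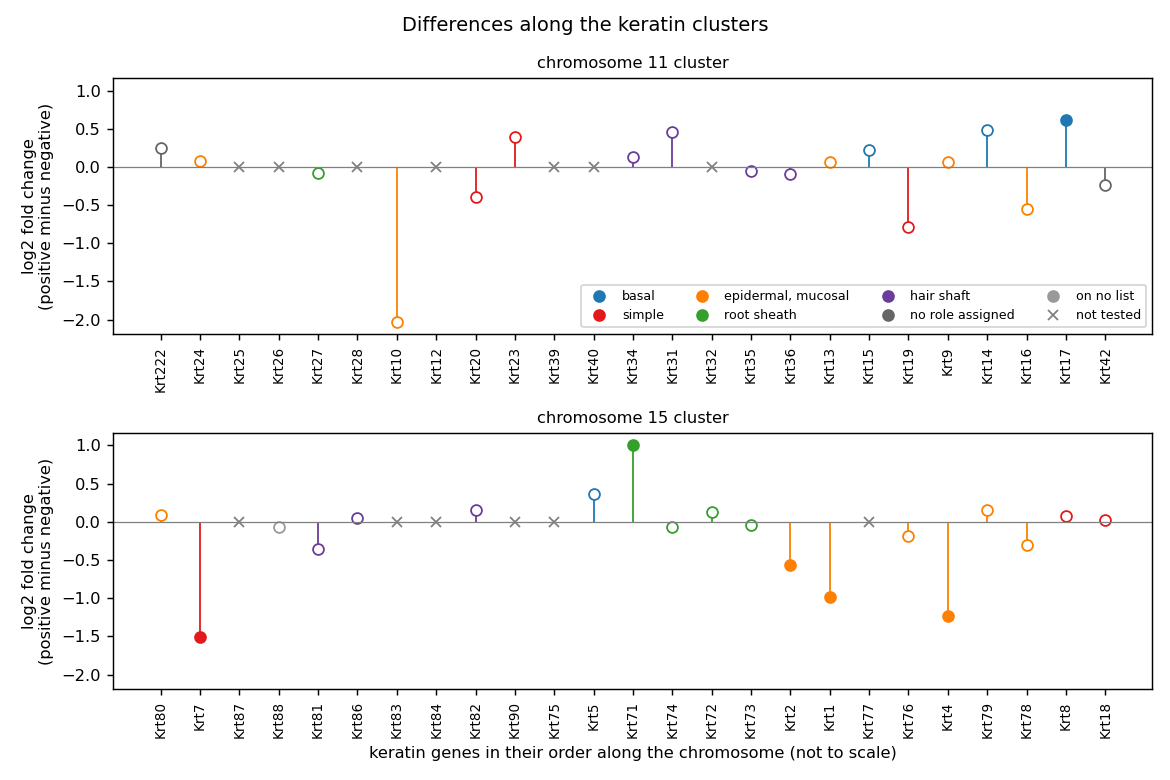
Log2 difference, Lgr5-positive minus Lgr5-negative (vertical axis), of keratin genes in their order along the chromosome 11 and 15 clusters (horizontal axis, not to scale), coloured by list, with filled circles for the 6 that passed with the replicate block. Of these 6, Krt17 lies on chromosome 11, and values of both signs occur along each cluster.

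The partners and regulators of keratins are read against the 7.72% of all genes that passed with the block. Of 16 anchors and binding partners tested, 0 passed with the group alone (limma), and 2 had an unadjusted p under 0.05, where all genes had 8.2%. Evpl, a plakin of desmosomes and the cornified envelope, fell with the block (-1.17, limma adjusted p = 0.0341, 0.443 with the group alone). The median of this list was 0.22. Of 10 intermediate filament genes that are no keratins, Des, the muscle filament, fell with the block (-0.97, adjusted p = 0.00527, 0.0809 with the group alone), and Lmna, of the nuclear lamina, rose (0.57, adjusted p = 0.035, 0.453 with the group alone). Pericytes also carry Des, and the part of their lower markers in its difference was not tested. Of 16 transcription factors known to act on keratin genes, Tfap2c, an AP-2 factor, rose with the block (0.66, adjusted p = 0.031, 0.532 with the group alone), and Grhl1, a grainyhead factor of epidermis, fell (-1.12, adjusted p = 0.0101, 0.443 with the group alone). Trp63, which directs the basal programme and Krt5 and Krt14, had a difference of 0.07.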

How the data were processed

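RNA of 6 sorted samples was measured on 2-colour Agilent arrays of 1 slide. Per the file headers, the authors' scanner files give median intensity for every spot and its background, and a log10 ratio from Feature Extraction 11.0.1.1 (11.0 per the submitters' processing notes). The authors also deposited a table of log2 ratios; each of its probes has a median of 0 over the arrays, and how its other values were made is not given in the sources used here.

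Under R 4.3.3 and limma 3.58.1, median intensities were background-corrected by normexp (offset 50) and normalized by loess in each array, with controls and outlier spots at weight 0 and then removed. Log2 ratios are Cy5 over Cy3. Of a gene's probes that passed the filter, the brightest by mean signal was used. Differences are Lgr5-positive minus Lgr5-negative, fitted with lmFit and eBayes (two-sided), with Benjamini-Hochberg adjustment over 15675 genes. Names came from RefSeq transcripts in a table of GRCm38.p6, where 21700 of 22103 accessions matched; the arrays are annotated on mm9, so no probe coordinates are given. The scripts were tested on simulated data.

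Replicate numbers occur in both groups. Deviations of same-numbered arrays from their group means correlated across genes at 0.81, 0.82 and 0.68. By a criterion of over 0.1 in every pair, the numbers were taken to pair the arrays. Correlations between other numbers lay between -0.67 and -0.16. Deviations cancel out within a group, which makes these negative on average, so they are no separate evidence of pairing.

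The rule names 8 basal and luminal keratins with values on each array, those that passed either fit, the 4 largest differences, the 3 highest and 3 lowest against the reference, and 2 on each side of the filter. Members, lists and rule were chosen with earlier results of these data known. Alternatives were no background subtraction, median centring, the scanner's ratios, the deposited table, the Cy5 channel alone, other filters and probe rules, array weights, the block, and leaving out arrays or pairs.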

Additional observations from a re-analysis of the deposited data

How the results depend on the processing

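With the group alone 1 keratin passed. There were 6 with the replicate block, 0 under median centring, 2 (Krt4 and Krt7) in the scanner's ratios and 2 in the deposited table, and 0 to 1 when single arrays were left out; without Lgr5-negative replicate 3 that 1 was Krt10. With the block 6 passed, against 1 with no block, 12 under median centring (1 higher, 11 lower), 3 in the scanner's ratios, 3 in the Cy5 channel alone and 2 to 6 without 1 pair, where Krt7 and Krt71 passed each time. The blocked calls of Krt17, Krt1 and Krt2 were kept in 4 of 9, 4 of 8 and 5 of 9 settings, and Krt19, Krt20 and Krt10 passed with the block under median centring (0.0124, 0.0211 and 0.0173), Krt10 also without pair 3.

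The median of the basal list was -0.0336 under median centring and 0.23 to 0.67 without single arrays, and that of the simple list -0.52 to -0.15 over settings and -0.36 to -0.12 without single arrays. That of the epidermal list was -0.37 in the deposited table and the scanner's ratios, 0.0598 with all 6 arrays above background, -0.10 with no filter, -0.43 for the mean of a gene's probes and -0.38 to -0.0458 without single arrays. That of the root sheath list was 0.48 with all 6 arrays above background and -0.031 to 0.0949 without single arrays. That of the hair shaft list was -0.14 under median centring, 0.14 in the deposited table and the scanner's ratios, -0.0481 in the Cy5 channel alone, 0.0091 with no filter and -0.0344 to 0.11 without single arrays. Keratins above the reference on all arrays numbered 14 to 20.

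Of the 19 keratins followed by name, those that changed sign with either fit were Krt5 (-0.0603), Krt14 (-0.0069), Krt15 (-0.29), Krt8 (-0.37), Krt18 (-0.37) and Krt86 (-0.42) under median centring, and Krt15 (-0.27) and Krt18 (-0.0059) in the Cy5 channel alone. Without single arrays the ranges that crossed 0 were -0.0614 to 0.49 for Krt15, -0.13 to 0.39 for Krt8, -0.13 to 0.33 for Krt18, -0.0522 to 0.16 for Krt86 and -0.15 to 0.053 for Krt74. With the block, leaving out pair 2 gave -0.26 for Krt8 and -0.22 for Krt18. All 12 epidermal keratins were below 0 under median centring, against 7 with loess. The causes were not tested. Dim signal limits Krt4, Krt27, Krt72, Krt74, Krt78 and Krt82, which were above background on 3 arrays, and Krt1, Krt36 and Krt88, on 5. A slide block was not possible on 1 slide. Levels against the reference were not run for the Cy5 channel alone or the centred deposited table.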
